A study of Homo sapiens with 6 samples.

Results

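Expression of 10 genes of the pathway from interleukin 6 (IL-6) type receptors to the transcription factor STAT3 was compared between FaDu cells given the compound BB608 and FaDu cells given its vehicle DMSO. The genes were chosen by name, with earlier results of these data known. They comprise 4 receptor chains (IL6ST, IL6R, OSMR and LIFR), the kinases JAK1 and JAK2, STAT3 itself, and 3 of its targets (SOCS3, SOCS1 and PIM1). All rows carrying one of these names were taken, which gave 33 of the 82428 coding sequences and 10 of the 20660 gene names in the authors' deposited table. FaDu is a long-established human line of hypopharyngeal squamous carcinoma, a head and neck cancer, and BB608 is known here only by its code name. Each of the 2 groups had 3 libraries of total RNA from this line, and neither a dose nor a treatment time is given in the sources used here.

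Cytokines of the IL-6 family bind a chain that serves only some of them, such as IL6R, OSMR or LIFR. They bind it together with the shared signalling chain gp130, which IL6ST encodes. Receptor assembly activates JAK kinases bound to the inner part of the chains, and these phosphorylate STAT3, which then enters the nucleus and activates its targets. Among those targets SOCS3 and SOCS1 encode inhibitors that close a negative feedback loop on the receptors and kinases, and PIM1 encodes a serine/threonine kinase that favours survival and growth. STAT3 is often active in squamous carcinomas of the head and neck. Its activity is set by phosphorylation, which RNA levels do not measure.

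The table gives 1 FPKM value (fragments per kilobase, scaled to library size) per group for each coding sequence, pooled by the authors over the group's libraries, so no spread between libraries can be shown. The log2 folds given below are of BB608 over DMSO. A coding sequence is said to have fallen or risen where the Cuffdiff q in the authors' deposited table was under 0.05. The implied SE of a fold was derived from the authors' statistic and p, and is an approximation. A gene sum is the FPKM of all coding sequences of a gene added up, and no error could be derived for it. Sequencing depth is unknown. In bulk RNA a change in the share of cells expressing a gene and a change of RNA per cell cannot be told apart. All 9 squamous epithelial markers examined had gene sums of at least 1 FPKM in both groups, led by KRT5, and none had a called coding sequence. The 6 fibroblast markers stayed at or below 0.690 FPKM in either group, with LUM listed at 0 in both. Of 6 blood markers PTPRC was at 0.00650 and 0.00130 FPKM and CD3E and HBB were listed at 0, whereas the lysosomal CD68 was at 22.9 and 20.3 FPKM and CD14 at 2.23 and 2.24 FPKM, DMSO first. Of 4 endothelial markers CDH5 alone reached 1 FPKM, with values of 3.82 and 4.09. KDR was listed at 0 and PECAM1 had no value under that name.

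Among the 10 genes 2 fell with BB608 and both are targets. SOCS3, the feedback inhibitor, fell most and PIM1, the kinase, fell less. None of the receptor chains, kinases or STAT3 had a called coding sequence. Of the 33 coding sequences 26 were tested by the authors, and of these 2 fell, none rose and 24 were not called. The 7 untested ones were all at or below 0.434 FPKM. Counted by gene, 2 of 10 members had a coding sequence that fell, whereas 72 of 11429 tested genes did so over the whole table, or 0.63%. Over all tested coding sequences 0.354% were called, and 0.212% fell. Before adjustment, 3 of 26 member sequences had a p under 0.05 by the authors' deposited table, against 3.31% of all tested coding sequences. Because the members were chosen with earlier results of these data known, these shares are a description and do not test the pathway.

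All 10 gene sums passed the minimum of 1 FPKM in the higher group that was set for comparing gene sums, and 5 were lower and 5 higher in BB608. Their median log2 fold was 0.0046, and that of all 10859 genes kept by the same rule was 0.03. Without SOCS3 and PIM1 the folds of the gene sums ran from -0.35 for IL6R to 0.12 for SOCS1, with 3 lower and 5 higher. Over the whole series 42.4% of kept genes were lower in BB608. From high to low, the gene sums in DMSO came in the order IL6ST, STAT3, SOCS3, JAK1, OSMR, PIM1, LIFR, JAK2, IL6R and SOCS1. In BB608 SOCS3 came after JAK1 and OSMR, and PIM1 came after LIFR. Without an error for gene sums, whether neighbours in this order differ could not be tested.

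**Figure D1:**
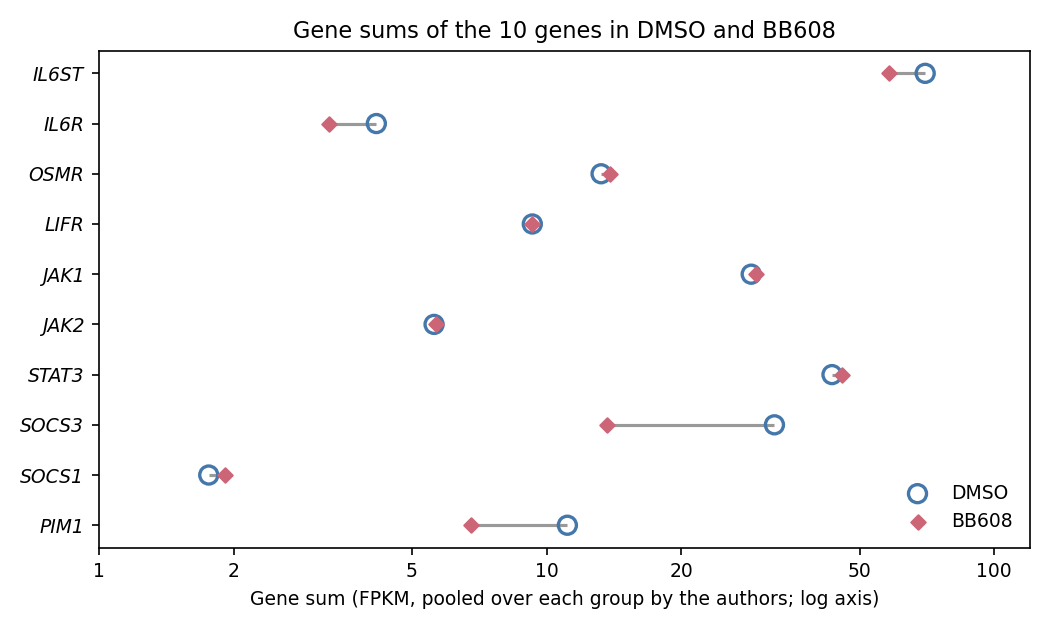
Gene sums in FPKM (horizontal log axis) of the 10 genes, with open circles for DMSO and filled diamonds for BB608, each 1 value pooled over a group with no error. The widest gap is that of SOCS3, from 32.3 to 13.6 FPKM, followed by PIM1, from 11.1 to 6.77 FPKM, while the symbols of LIFR, JAK1, JAK2, OSMR and STAT3 overlap or nearly touch.

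SOCS3 encodes an inhibitor that binds gp130 and JAK kinases. Its locus spans chr17:76352864-76356158 of hg19. The main coding sequence, P37353, was at 31.4 FPKM with DMSO and 10.8 FPKM with BB608. It fell by 1.53 on the log2 scale in the authors' deposited table, with an implied SE of 0.15 and a q of 0.0154, which leaves 0.345 of the DMSO level. A 95% interval from that SE runs from -1.83 to -1.24. Among the 73 called falls of the table it was the 13th largest. The p behind this q is the smallest that the table holds, 5e-05, and so gives only a bound. At that bound the SE would be 0.38, so the row's own p could not check the narrower interval.

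A minor SOCS3 coding sequence, P37352, had the opposite sign. It was at 0.893 FPKM with DMSO and 2.80 FPKM with BB608, a log2 fold of 1.65 with a p of 0.1002 in the authors' deposited table, and was not called. Its share of the SOCS3 gene sum was 2.76% in DMSO and 20.5% in BB608. Cufflinks divides reads among overlapping coding sequences, so the gene sum was examined as well. It went from 32.3 to 13.6 FPKM, or a log2 fold of -1.24, and ranked 90th from the lowest among the 10859 kept genes. The lower value with BB608 was thus present in the main coding sequence and, to a smaller extent, in the sum.

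PIM1 had a single coding sequence in the table, P67487. Its locus spans chr6:37137979-37143202 of hg19. PIM1 was at 11.1 FPKM with DMSO and 6.77 FPKM with BB608. It fell by 0.72 on the log2 scale in the authors' deposited table with an implied SE of 0.15 (q 0.0154), to 0.608 of the DMSO level, with a 95% interval from -1.004 to -0.431. It was the 54th largest of the 73 called falls. Genes with 1 tested coding sequence were called lower more often than genes in general, at 1.27% of 3551 such genes.

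SOCS1, the other feedback inhibitor among the 10 genes, was scarce. Its single coding sequence was at 1.76 FPKM with DMSO and 1.92 FPKM with BB608, with a log2 fold of 0.12 ± 0.36 (implied SE) and p 0.7247 by the authors' deposited table. The 95% interval from -0.58 to 0.82 leaves room for a moderate change in either direction. The table assigns SOCS1 a locus of 102 kb that it shares with RMI2, a DNA repair gene. RMI2 had 15.4 FPKM in DMSO and 16.2 FPKM in BB608, and none of its sequences was called. The level of SOCS3 was 18.3 times that of SOCS1 in DMSO and 7.11 times in BB608, both as gene sums in FPKM.

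The sequence before the transcription start is shown for SOCS3 and PIM1 because these were the members that fell together. It was searched on both strands for TTCNNNGAA, the palindrome that STAT dimers bind, and for its spacing variant TTCNNGAA. The spacings were chosen after the sequences were seen. The AP-1 motif TGANTCA and the cAMP response motif TGACGTCA were searched too. Sequences are from RefSeq on GRCh38.p14, 5′ to 3′ on the gene's strand, with 250 bases that end just before the RefSeq start. Capitals mark a motif match. RefSeq gives SOCS3 2 starts, and the window printed is that of the upstream one, chr17:78360926-78361175 (minus strand), while the PIM1 window is chr6:37169902-37170151 (plus strand).
SOCS3: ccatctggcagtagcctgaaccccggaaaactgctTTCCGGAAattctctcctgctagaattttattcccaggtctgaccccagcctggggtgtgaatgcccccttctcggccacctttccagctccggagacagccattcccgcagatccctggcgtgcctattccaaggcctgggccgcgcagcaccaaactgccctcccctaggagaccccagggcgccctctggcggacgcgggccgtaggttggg
PIM1: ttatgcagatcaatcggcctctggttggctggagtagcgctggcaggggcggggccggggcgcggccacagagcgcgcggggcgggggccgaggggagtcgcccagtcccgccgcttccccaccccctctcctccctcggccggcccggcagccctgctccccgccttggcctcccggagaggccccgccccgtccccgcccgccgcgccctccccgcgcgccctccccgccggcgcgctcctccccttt
This SOCS3 window holds TTCCGGAA, a match to TTCNNGAA that begins 215 bases before its start. The window of the other SOCS3 start, chr17:78359668-78359917, and the PIM1 window hold no match to any of the 4 motifs. The upstream SOCS3 start lies 848 bases upstream of the first protein-coding start in GENCODE 29. The other is nearer, 410 bases downstream of GENCODE's start, and its window, which lies inside the gene as GENCODE gives it, is not printed. Neither window covers the bases just before GENCODE's start. For PIM1 the RefSeq start lies 51 bases upstream of GENCODE's. A missing match says only that these letters are not in the window.

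All 10 genes had at least 1 RefSeq window, 18 in all. TTCNNNGAA was in 2 of the 18, both of LIFR, and in 6.57% of all 35116 windows of the same length. TTCNNGAA was in 4 windows, of SOCS3, STAT3, JAK1 and IL6R, and in 6.62% of all windows. With spacings chosen after the sequences were seen, these shares cannot test for an excess in the members. None of the 18 held TGANTCA or TGACGTCA, which were in 6.57% and 1.65% of all windows. The LIFR and STAT3 matches are shown with 25 bases on either side, from chr5:38595537-38595595, chr5:38557616-38557674 and chr17:42388541-42388598, all on the minus strand of GRCh38.p14.
LIFR, first match: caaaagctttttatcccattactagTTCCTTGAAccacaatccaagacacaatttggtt
LIFR, second match: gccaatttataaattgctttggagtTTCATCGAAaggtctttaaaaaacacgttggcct
STAT3: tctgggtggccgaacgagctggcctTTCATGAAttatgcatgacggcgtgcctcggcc
Among the 5 genes with a match to either motif, the log2 folds of the gene sums were -1.24 for SOCS3, -0.35 for IL6R, -0.0049 for LIFR, 0.04 for JAK1 and 0.07 for STAT3.

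STAT3 was the second most abundant of the 10 genes and its gene sum stayed close, at 43.4 FPKM with DMSO and 45.6 FPKM with BB608, a log2 fold of 0.07. Its locus is chr17:40465258-40540586 of hg19. The sum was divided among 5 tested coding sequences, none of them called, whose names in the table do not say which STAT3 isoform they encode. The most abundant over both groups, P36212, was at 13.1 FPKM with DMSO and 15.7 FPKM with BB608, with a log2 fold of 0.26 ± 0.19 (implied SE) and p 0.164 by the authors' deposited table. Its 95% interval runs from -0.11 to 0.62. P36213 was at 10.2 and 15.3 FPKM, or a log2 fold of 0.59 ± 0.25 (implied SE), p 0.023 before adjustment and q 0.997 after it by the authors' deposited table. P36211 moved the other way, from 14.4 to 8.96 FPKM, or a log2 fold of -0.68 ± 0.45 (implied SE) and p 0.1397 by the authors' deposited table. As shares of the gene sum, P36211 went from 33.1% to 19.6% and P36213 from 23.4% to 33.5%. The table has no test of these shares.

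**Figure D2:**
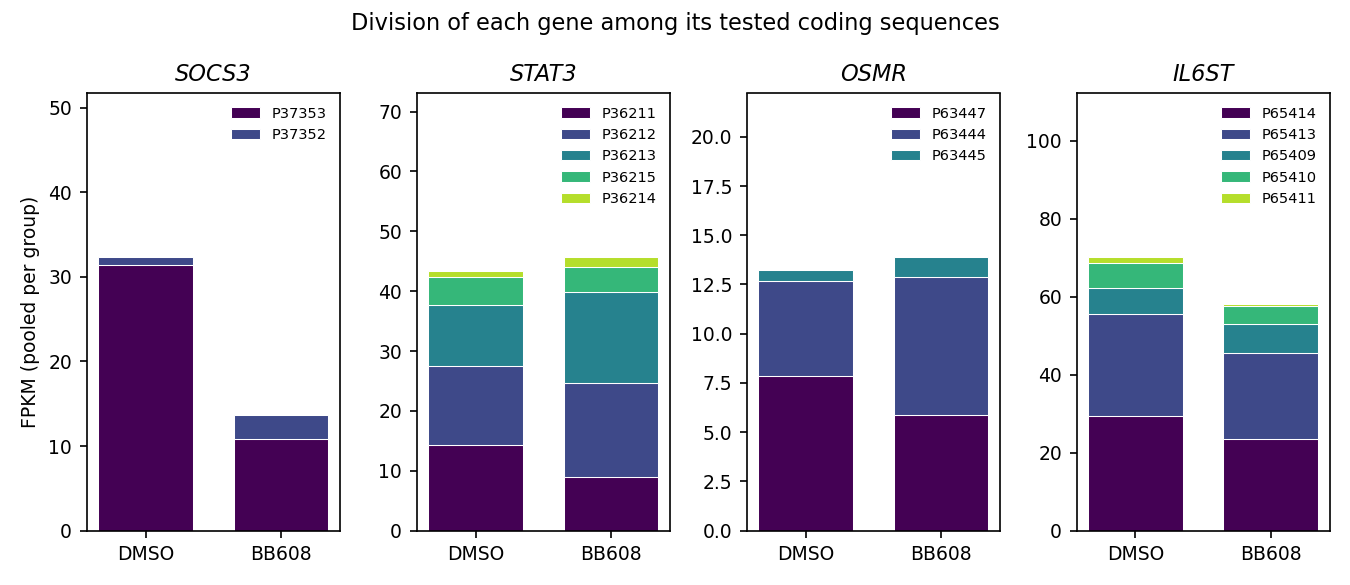
FPKM (vertical axis, from 0, a scale of its own in each panel) of the tested coding sequences of SOCS3, STAT3, OSMR and IL6ST, stacked by group in the order of their DMSO level, with no error. The SOCS3 stack drops from 32.3 to 13.6 FPKM, and the STAT3 and OSMR stacks keep nearly the same height while their parts differ in size.

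The kinases gave the narrowest intervals among the uncalled genes. JAK1, which binds gp130, had a single coding sequence at 28.6 FPKM with DMSO and 29.4 FPKM with BB608, with a log2 fold of 0.04 ± 0.11 (implied SE) by the authors' deposited table and a 95% interval from -0.18 to 0.25. JAK2 was lower in abundance, and its main coding sequence P77264 was at 5.29 and 5.09 FPKM, with a log2 fold of -0.06 ± 0.14 (implied SE) by the authors' deposited table and an interval from -0.33 to 0.22. A fall of these JAK1 and JAK2 sequences as large as that of PIM1 lies outside both intervals. The minor JAK2 sequence P77263, at 0.319 and 0.575 FPKM, had an implied SE of 1.12. JAK1 exceeded JAK2 by 5.11 times in DMSO and 5.18 times in BB608 as gene sums.

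Among the receptor chains IL6ST, the shared gp130 subunit, was the most abundant of all 10 genes. Its gene sum was 70.1 FPKM in DMSO and 58.1 FPKM in BB608, a log2 fold of -0.27 that ranked 1198th from the lowest among kept genes. Of its 5 tested coding sequences 4 were lower in BB608 and none was called. P65414 and P65413, with 42.0% and 37.2% of the gene sum in DMSO, were at 29.4 and 26.1 FPKM in DMSO and at 23.6 and 21.9 FPKM in BB608. Their implied SEs of 1.52 and 1.19 are several times the folds, so any change in either sequence was poorly determined in spite of its abundance. For the gene sum no error could be derived. P65410, from 6.31 to 4.69 FPKM, was better determined, with a log2 fold of -0.43 ± 0.29 (implied SE) and p 0.1498 by the authors' deposited table.

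IL6R, the chain specific to IL-6, was low in both groups, with a gene sum of 4.17 FPKM in DMSO and 3.27 FPKM in BB608. Its main coding sequence P2233 was at 2.25 and 2.28 FPKM, or a log2 fold of 0.02 ± 0.57 (implied SE) by the authors' deposited table. The lower gene sum thus came from minor sequences, of which P2234 went from 0.636 to 0.0800 FPKM with an implied SE of 2.49. The gp130 chain exceeded IL6R by 16.8 times in DMSO and 17.7 times in BB608 as gene sums.

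OSMR, a receptor chain for oncostatin M, had a gene sum of 13.2 FPKM in DMSO and 13.9 FPKM in BB608. Its main coding sequence P63447 went from 7.85 to 5.89 FPKM, or a log2 fold of -0.42 ± 0.41 (implied SE) and p 0.307 by the authors' deposited table. P63444 went from 4.85 to 7.02 FPKM, or a log2 fold of 0.53 ± 0.74 (implied SE) by the authors' deposited table. The opposite signs left the sum at a log2 fold of 0.07.

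LIFR, the chain for leukaemia inhibitory factor that also pairs with gp130 for oncostatin M, had a gene sum of 9.29 FPKM in DMSO and 9.26 FPKM in BB608. Its main coding sequence P65295 was at 4.81 and 5.51 FPKM, with a log2 fold of 0.20 ± 0.26 (implied SE) by the authors' deposited table, and P65296 was at 4.12 and 3.12 FPKM. Neither was called. LIFR and OSMR are neighbours on chromosome 5, at chr5:38475065-38671318 and chr5:38845960-39074510 of hg19, with 175 kb between their loci. The OSMR locus of the table also holds RICTOR, a subunit of mTOR complex 2, at 17.7 and 16.9 FPKM.

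**Figure D3:**
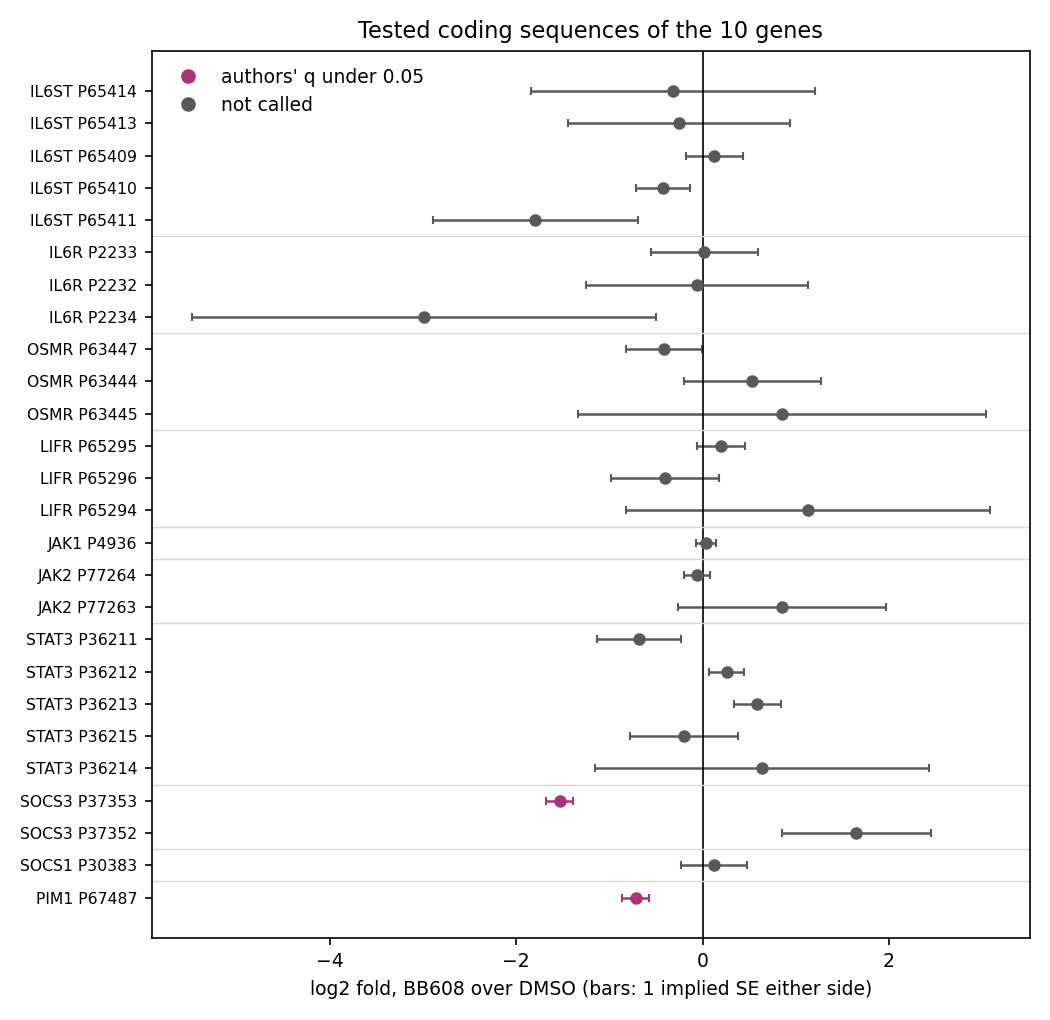
The log2 fold of BB608 over DMSO (horizontal axis) for the 26 tested coding sequences of the 10 genes, with bars of 1 implied SE on either side and the 2 called sequences in colour. SOCS3 P37353 at -1.53 and PIM1 P67487 at -0.72 have short bars away from 0, and implied SEs over all 26 run from 0.11 to 2.49.

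The neighbours of the members were examined next. Within 50 kb of a member's locus the table lists 9 other genes with a tested coding sequence, and none of them had a called one. Beside SOCS3 lies PGS1, a phospholipid synthesis gene, with a gene sum of 15.5 FPKM in DMSO and 15.9 FPKM in BB608. Beside PIM1 lies TBC1D22B, at 2.64 and 3.91 FPKM. Neither neighbour was lower in BB608. STAT5B and STAT5A, the paralogs next to STAT3, were at 5.49 and 0.872 FPKM in DMSO and 6.31 and 0.715 FPKM in BB608.

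Called coding sequences with a fold near those of SOCS3 and PIM1 were sought as the nearest log2 folds, a likeness over only 2 pooled values. The 4 nearest to SOCS3 were in MBNL2, ADNP2, KIAA0040 and FAM46C, at -1.56, -1.61, -1.39 and -1.68 in the authors' deposited table. All 4 were far less abundant than SOCS3, at 1.41 to 3.36 FPKM in DMSO, and their gene sums had folds of -0.32, -1.88, -0.97 and -1.68. The 4 nearest to PIM1 were in N4BP3, ASNS, SNAI1 and ZNF697, at -0.72, -0.71, -0.74 and -0.74 in the authors' deposited table.

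Beyond the 10 genes, 76 other genes of the pathway were examined as a list, which was also chosen with earlier results of these data known. Of the 53 with a tested coding sequence 1 fell, the transcription factor gene FOS, none rose and 52 were not called, beside 1.06% of all tested genes with a call in either direction. The 23 without a tested sequence had gene sums of at most 0.978 FPKM. Among the 52 listed genes kept by the FPKM minimum, 30 were lower and 22 higher in BB608, with a median log2 fold of -0.01. Before adjustment 7 of the 53, or 13.2%, had a coding sequence with p under 0.05 by the authors' deposited table, and over all tested genes 9.49% did.

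All 4 tested ligand genes had lower gene sums in BB608, and none was called. IL6, which encodes the cytokine IL-6, had a gene sum of 4.93 FPKM in DMSO and 2.42 FPKM in BB608. Its sequence P70594 showed a log2 fold of -1.15 ± 0.41 (implied SE), p 0.01525 before adjustment and q 0.997 after it by the authors' deposited table. LIF, the ligand of LIFR, had a gene sum of 6.77 FPKM in DMSO and 4.11 FPKM in BB608, and its main sequence showed a log2 fold of -0.87 ± 0.56 (implied SE) and p 0.1302 by the authors' deposited table. CLCF1, a cytokine that signals through the CNTF receptor complex, had gene sums of 5.99 and 4.67 FPKM, and P13812 showed a log2 fold of -0.58 ± 0.27 (implied SE) and p 0.0383, q 0.997 by the authors' deposited table. CNTF was the fourth tested ligand gene. OSM and IL11 were named after their values were seen. OSM, the gene of oncostatin M, was at 0.0118 and 0.0138 FPKM and was not tested, and IL11 was at 0.698 and 0.396 FPKM, also untested.

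Other receptors, kinases and STAT genes had no call. IL27RA was at 3.32 and 3.25 FPKM in DMSO and BB608, while IL11RA and IL31RA, and CNTFR, named after its value was seen, had no tested sequence. JAK3 was at 0.0623 and 0.164 FPKM and untested. TYK2, a JAK family kinase, had a gene sum of 29.5 FPKM in DMSO and 38.2 FPKM in BB608, spread over 9 tested sequences. Its main sequence had a log2 fold of 0.07 ± 0.37 (implied SE) by the authors' deposited table. STAT6 and STAT2 had gene sums of 29.9 and 12.2 FPKM in DMSO and 24.1 and 12.1 FPKM in BB608.

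In the feedback and inhibitor list 16 of 17 genes were tested and none was called. The most abundant were PTPN11, a phosphatase also named SHP2, at 85.7 and 85.2 FPKM, PTPN2, a phosphatase of JAK and STAT proteins, at 67.1 and 75.3 FPKM, and the sheddase gene ADAM10 at 65.1 and 63.9 FPKM. SOCS6, named after its value was seen, came closest to a call. Its sequence P38309 went from 2.50 to 0.898 FPKM at p 0.0003 and q 0.0772 by the authors' deposited table, and its gene sum from 7.41 to 5.02 FPKM. The gene sums of SOCS2, SOCS4, SOCS5 and SOCS7, also named after their values were seen, had log2 folds of 0.00022, -0.0061, -0.01 and -0.0022. Among the SOCS genes SOCS3 alone had a called coding sequence, where 1.06% of all tested genes had a call in either direction. The difference between SOCS3 and the other SOCS genes was not tested.

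Among 36 other targets of STAT3 in the list, 26 were tested, FOS fell and 25 were not called. Over all tested genes 0.63% had a coding sequence that fell. FOS sequence P22371 went from 36.6 to 15.5 FPKM, or a log2 fold of -1.24 ± 0.16 (implied SE) and q 0.0154 by the authors' deposited table. The FOS gene sum, over 8 tested sequences and 1 untested one, went from 114 to 74.8 FPKM. The most abundant targets were CCND1, which encodes cyclin D1, at 126 and 132 FPKM, BIRC5, which encodes survivin, at 114 and 118 FPKM, and the protease inhibitor TIMP1 at 111 and 103 FPKM. The kinase genes PIM3 and PIM2, paralogs of PIM1 named after their values were seen, were at 52.2 and 7.18 FPKM in DMSO and at 54.3 and 6.61 FPKM in BB608, and neither was called. The 26 kept targets of the list had a median log2 fold of 0.03, with 12 lower and 14 higher.

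**Figure D4:**
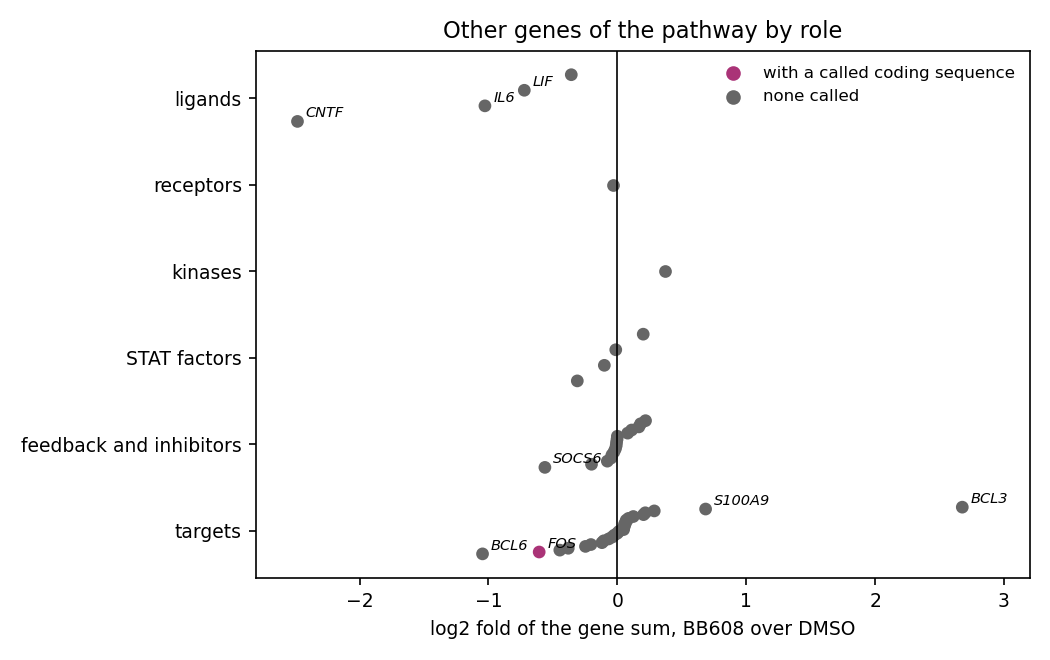
The log2 fold of the gene sum, BB608 over DMSO (horizontal axis), of 52 other genes of the pathway in 6 roles, 1 point per gene with no error, spread vertically for legibility and named where the fold is 0.55 or more in size. The 4 ligands all lie below 0, most feedback and target genes lie close to 0, and the coloured point is FOS at -0.61.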

How the data were processed

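RNA sequencing of 6 FaDu libraries, 3 with DMSO and 3 with BB608, was analysed from 1 table. Per the labels' protocols, total RNA was extracted with Trizol and ribosomal RNA was removed in a stranded kit. Reads were processed on hg19 with TopHat2 2.0.11, then with Cufflinks 2.2.1, and compared by Cuffdiff, per the submitters' processing notes. Which annotation they used is not stated there. The deposited values are FPKM pooled by the authors per group. The deposited table also holds the authors' log2 fold, which was infinite or extreme where a value was near 0, their test statistic, which serves as a score, and their p-value and q-value. The deposited q matched a Benjamini-Hochberg adjustment of the deposited p over all tested rows to within 5.23e-07.

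With pooled values no model per library, and so no limma, could be fitted, and the authors' q was used. The median of the normal quantile of p over the statistic was 1.73, and the implied SE is the fold over the statistic and this median. From a row's own p, the SE was 0.781 to 1.52 times the implied one in 22 uncalled member sequences. For the called SOCS3 and PIM1 sequences, with p at its smallest, it was 0.38 and 0.18, which are upper bounds only. Gene sums were kept at 1 FPKM or more in the higher group, with a tested sequence and no failed one. The calculation was run on simulated data built with a constant ratio and normal p-values. Such data check the arithmetic and cannot show how well the implied SE fits these rows. Members and lists were chosen with earlier results of these data known, and motif spacings after seeing the sequences. A further, wider spacing of TTC and GAA was also searched, and its outcome is not reported here. Named genes were the members, called genes of the pathway list, the 3 most abundant per role and the 4 folds nearest to SOCS3 and to PIM1. Neighbouring genes were named by position, and other genes outside the rule after their values were seen. An item that this rule names is not reported here. The series' design text calls the replicates biological and says no more of their source. Software was Python 3.11.15 with pandas 2.3.3, numpy 2.4.6 and scipy 1.17.1.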

Additional observations from a re-analysis of the deposited data

How the results depend on the processing

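SOCS3 and PIM1 were the 2 member genes called with a mean of at least 1 or 5 FPKM and with normal p-values from the statistic. FOS was the 1 other gene called under each of these. The called sequences of these genes all had the smallest p in the authors' deposited table, 5e-05. These settings reuse the same p or statistic, so they could hardly have undone the calls and do not check them. With an absolute log2 fold of at least 1 required, 1 member was called, SOCS3, by construction. Of 100 alternative values of the members' folds, 98 moved by less than the implied SE of the main coding sequence. The gene sum moved the other 2, from -1.53 to -1.24 for SOCS3 and from -0.42 to 0.068 for OSMR. Sign changes numbered 10, in the uncalled IL6R, OSMR, LIFR and JAK2. Setting the median of all genes to 0 shifted every fold by 0.03. The median of the other pathway genes lay between -0.05 and -0.0061. A move within the wide implied SEs of IL6ST and IL6R does not measure stability. Small pseudocounts, a common shift and re-sums of a single coding sequence could hardly move a fold. The count of 98 is thus not a measure of stability either. No paired analysis was possible because libraries were pooled before deposit, and no replicate could be left out. Unknown depth limits low sequences such as SOCS1.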

Other observations

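Some genes of the pathway list outside the naming rule were chosen after their values were seen. CNTF, the gene of ciliary neurotrophic factor, went from 1.55 to 0.278 FPKM with an implied SE of 1.34 and a p of 0.17625 in the authors' deposited table. BCL3, a nuclear regulator of NF-kB, went from 0.160 to 1.02 FPKM with an implied SE of 1.53 and a p of 0.20385 in the authors' deposited table. S100A9, a calcium-binding protein of inflamed epithelium, was higher in BB608, at 1.70 and 2.73 FPKM, at p 0.0392 and q 0.997 by the authors' deposited table. IRF1, an interferon-regulated transcription factor gene, had a gene sum of 29.1 FPKM in DMSO and 22.4 FPKM in BB608, and its main sequence had p 0.03815 and q 0.997 by the authors' deposited table. None of these was called.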
